A study of Mus musculus with 15 samples.

Results

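The voltage-dependent anion channels (VDACs) were followed across 6 groups of mouse oocytes. The platform annotation gave 7 probe sets that name exactly 1 of the 3 genes, out of 18193 genes named in this way on the array. Vdac1 (gene identifier 22333) had 5 probe sets, and Vdac2 (22334) and Vdac3 (22335) had 1 each. The genes were picked because Vdac1 rose and Vdac3 fell between the germinal vesicle (GV) stage and metaphase II (MII) in these data, so every Vdac value that sets MII against GV is given below as a description without a test.

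VDACs are beta-barrel pores of the mitochondrial outer membrane, through which ATP, ADP, phosphate, pyruvate and other small solutes pass between cytosol and mitochondrion. VDAC1 is the usual major form and a docking site for hexokinase and for contacts with the endoplasmic reticulum, VDAC2 binds the pore-forming apoptosis protein BAK, and VDAC3 is known for its role in sperm motility. A fully grown oocyte is transcriptionally silent and matures on stored mRNA, whose poly(A) tails can lengthen or shorten, while its ATP comes mainly from mitochondrial oxidation of pyruvate.

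All oocytes came from B6D2F1 females, a cross of C57BL/6 and DBA/2, primed with PMSG (pregnant mare serum gonadotropin), which drives follicle growth. The adults were 7 to 8 weeks old and were the source of 2 GV pools, of 3 MII pools that matured in the animal after human chorionic gonadotropin (in vivo) and of 2 MII pools that matured for 16 h in culture (in vitro). From peripubertal females aged 26 days (d26) there were 2 pools of MII oocytes matured in vivo and 3 matured in vitro, and from prepubertal females aged 20 days (d20) there were 3 pools matured in vitro. GV oocytes were collected from adults only. Every array carried polyadenylated RNA of a pool of 150 oocytes after hyaluronidase had removed the cumulus cells, so neither less RNA per oocyte and fewer intact oocytes, nor a shorter poly(A) tail and fewer transcripts, can be told apart. Whether each pool had its own animals is not in the labels, and the p-values below measure only the spread between these pools, which may be technical.

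The arrays differed in brightness. Probe sets with a deposited intensity over 200 numbered 9696 to 9819 on the GV arrays, 4882 to 6734 on 9 MII arrays and 2615 to 3042 on the remaining 4, called dim here. Replicate 1 of the adult in vivo group is dim, as are replicate 2 of adult in vitro and replicates 2 and 3 of d26 in vitro. Levels below are log2 intensities after quantile normalization, which gives all arrays the same distribution, and results that turn with another scaling are named. The 8 oocyte markers all had tested probe sets, and 5 of 8 fell against GV in both adult MII groups. By group mean Gdf9 lay between 12.72 and 13.55, while Zp3 was 13.15 in GV and 8.79 to 9.47 at MII. Over all tested probe sets 15.7% rose and 11.1% fell in adult in vivo oocytes. In adult in vitro oocytes 16% rose and 11.7% fell. These shares are the background of each marker list. The summed normalized intensity of 9 measured cumulus and granulosa markers ran from 98.7 to 136 in GV arrays and from 168 to 358 in MII arrays, and 1 of 7 tested rose in adult in vivo and 2 in adult in vitro oocytes, while the deposited sums overlapped (226 to 275 in GV and 77.4 to 318 at MII). Summed leukocyte markers (6 measured, none of 2 tested rose) ran from 34.1 to 36.4 in GV, 102 to 381 in adult in vivo and 34.9 to 102 in other MII arrays, and summed oviduct markers (5 measured, 1 of 3 tested rose in adult in vivo) from 99.6 to 103, 163 to 468 and 25.5 to 116. As deposited the oviduct sums of GV (285) and adult in vivo (126 to 725) overlapped, and the leukocyte sums were 60.5 to 71.5 in GV and 134 to 214 in adult in vivo arrays. The part of these markers in the results was not tested.

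Vdac1 was read by 5 probe sets that did not all move together. The leading probe set of each gene is the one with the highest mean over all arrays, which for Vdac1 was 1436992_x_at. The suffix _x_at marks a set in which some probes also match other sequences, so part of its signal may come from another transcript. Its level was 9.53 and 9.62 in the GV arrays. It was 11.85, 11.21 and 11.39 in adult in vivo oocytes, and 11.48 and 12.19 in adult in vitro oocytes. All adult MII arrays lay above both GV arrays.

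In the younger females the leading Vdac1 probe set was 11.27 and 11.07 in d26 in vivo oocytes. It was 11.08, 12.18 and 11.78 in d26 in vitro oocytes. In d20 in vitro oocytes it was 11.25, 10.996 and 11.16. All 13 MII arrays thus lay above the 2 GV arrays after quantile normalization, as did 18% of tested probe sets, a share given here only as background, since the gene was chosen for this difference. In terms of rank, the probe set was brighter than 94.5 and 94.7% of probe sets in the GV arrays and than 97.7 to 99.3% in the MII arrays.

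The mean difference from GV was 1.91 (SE 0.31) in adult in vivo and 2.26 (SE 0.34) in adult in vitro oocytes, or 3.76 and 4.79 times the GV level after quantile normalization, and 0.92 and 0.58 as deposited. The differences of the other MII groups from the same GV arrays were 1.60 for d26 in vivo, 2.11 for d26 in vitro and 1.56 for d20 in vitro oocytes. As deposited these were 0.73, 0.18 and 0.92, and the d26 in vitro intensities (1365 to 2390) then overlapped with GV (1643 and 1745). By group mean the order was adult in vitro (11.83 ± 0.50, SD, n = 2), d26 in vitro (11.68 ± 0.55, SD, n = 3), adult in vivo (11.48 ± 0.33, SD, n = 3), d26 in vivo (11.17 ± 0.15, SD, n = 2), d20 in vitro (11.13 ± 0.13, SD, n = 3) and GV (9.57 ± 0.07, SD, n = 2). Each neighbouring pair in this order overlapped except d20 in vitro and GV. The 4 dim arrays were also the 4 highest, from 11.78 to 12.19 against 10.996 to 11.48 in the other 9 MII arrays, and without the dim arrays the adult in vitro difference from GV was 1.77, a value that then rests on 1 MII array.

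**Figure D1:**
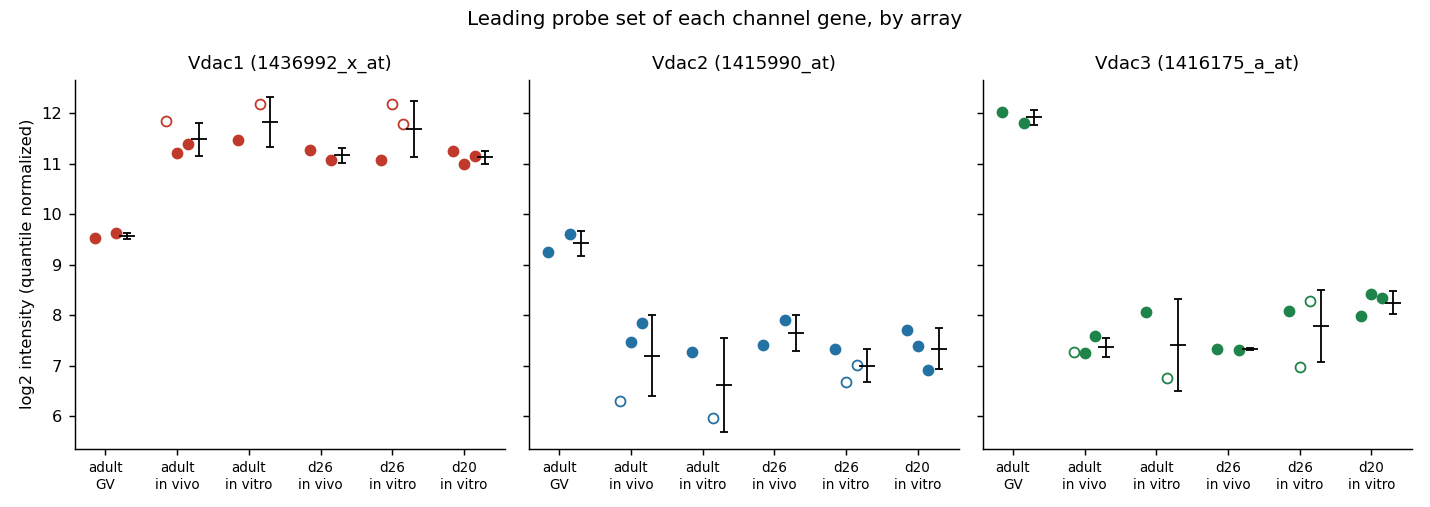
Quantile normalized log2 intensity of the leading probe set of Vdac1, Vdac2 and Vdac3 (vertical axis) in each array of the 6 groups (horizontal axis); open circles are the 4 dim arrays, and bars are the group mean ± SD. Vdac1 lies between 9.53 and 9.62 in GV and between 10.996 and 12.19 in MII arrays, while Vdac2 and Vdac3 lie lower in all 13 MII arrays than in the 2 GV arrays.

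A pair of further _x_at sets gave smaller rises in the same direction after quantile normalization. 1437192_x_at was 8.05 and 7.70 in GV arrays and 8.71 to 9.60 (median 9.25) over the 13 MII arrays. 1437947_x_at was 7.20 and 6.23 in GV arrays and 7.80 to 8.80 (median 8.11) at MII. Neither overlapped with GV, beside 18% of tested probe sets that were higher in all MII arrays. Their differences from GV were 1.50 (SE 0.27) and 1.61 (SE 0.39) in adult in vivo oocytes and 1.52 (SE 0.30) and 1.58 (SE 0.43) in adult in vitro oocytes, but the direction turned with the values as deposited (-0.12 and -0.30 in vivo, -1.01 and -1.31 in vitro), and median scaling gave 0.65 and 0.47 for adult in vivo and 0.40 and 0.11 for adult in vitro oocytes. The median difference over all tested probe sets as deposited was -0.97 in vivo and -1.92 in vitro, lower than that of either set.

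1437452_x_at was near the bottom of the range and did not pass the filter on low signal. It was brighter than only 0.847 and 2.66% of probe sets in the GV arrays and than 30.3 to 64.4% in the MII arrays. Its deposited intensity was 1.00 and 0.51 in GV and 3.27 to 16.9 at MII, higher in all 13 MII arrays under each of the 3 scalings, at signals so low that no size of change is given. The share of probe sets under the filter that were higher in all MII arrays was not counted, so this separation has no background beside it.

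The probe set annotated with the RefSeq transcript of Vdac1, 1415998_at, was not higher than GV in every MII array. It was 5.37 and 5.29 in GV arrays. In adult in vivo oocytes it was 4.10, 6.95 and 6.52, which spans the GV level. In adult in vitro oocytes it was 4.76 and 2.70, below both GV arrays, beside 29.8% of tested probe sets. Of the 13 MII arrays 9 lay above and 4 below the GV arrays, and its differences from GV were 0.52 (SE 0.87) in vivo and -1.60 (SE 0.95) in vitro. The first turned to -1.07 with the values as deposited and to -0.30 with median scaling. Of the values below GV, 4.10, 2.70 and 4.51 came from dim arrays, which ran from 2.70 to 6.66. The other 9 MII arrays ran from 4.76 to 7.00. Without the dim arrays the difference from GV was 1.53 in vivo, beside 1.60, 1.45 and 1.48 in the 3 _x_at sets above the filter. In vitro it was then -0.64, a value that rests on 1 MII array.

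Among the MII arrays this probe set also ran against the leading one, with a Pearson correlation of -0.78 over 13 arrays that share the uneven brightness described above. The leading set and 1437947_x_at had a correlation of 0.68 over the same arrays. In d26 in vivo oocytes 1415998_at was 5.47 and 7.00, in d26 in vitro oocytes 6.13, 4.51 and 6.66, and in d20 in vitro oocytes 6.45, 6.24 and 6.95. Its d20 arrays were the most even of the MII groups, at 6.55 ± 0.37 (SD, n = 3). After quantile normalization the higher MII level was thus seen in the 3 _x_at sets above the filter, of which only the leading one kept the direction as deposited in both adult groups, and the set with the RefSeq accession had MII arrays on both sides of GV. Which of them follows the Vdac1 transcript was not tested.

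**Figure D2:**
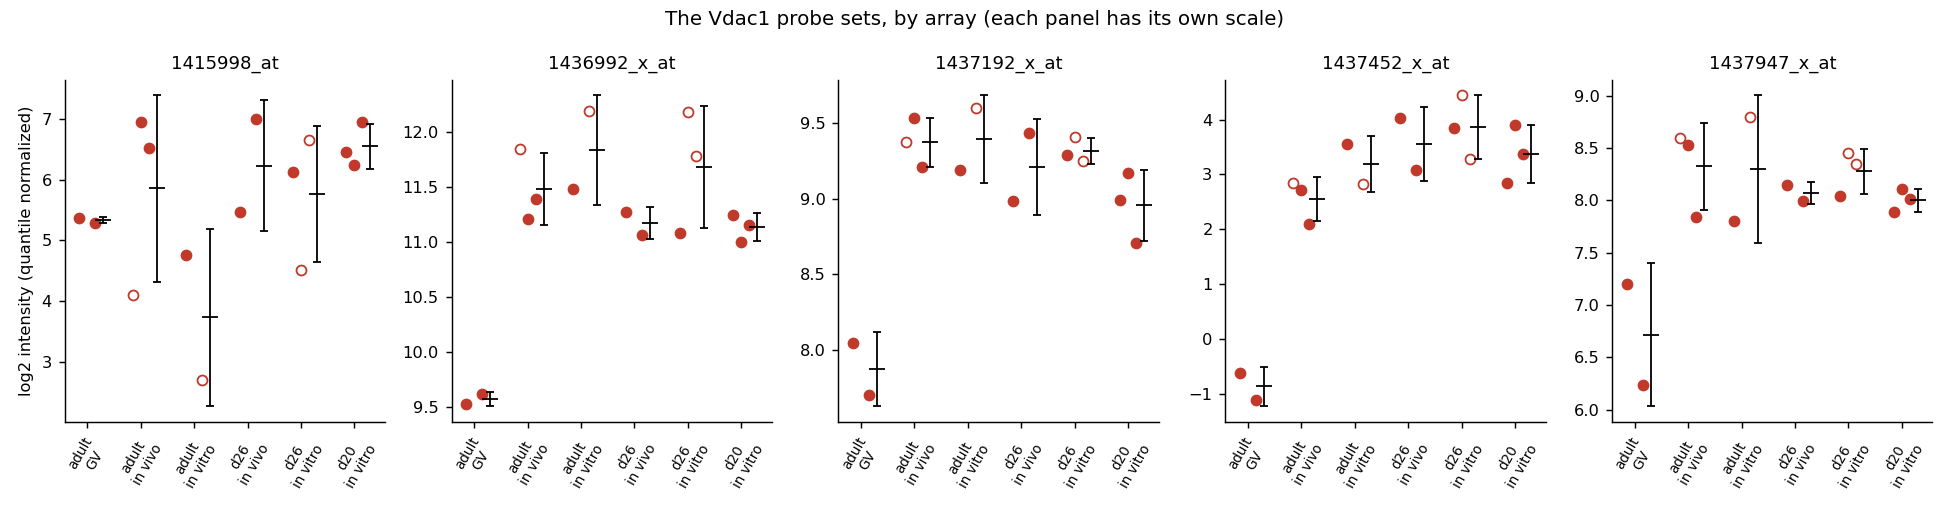
Quantile normalized log2 intensity of the 5 Vdac1 probe sets (vertical axis, a separate scale in each panel) in each array of the 6 groups; open circles are the 4 dim arrays, and bars are the group mean ± SD. The 4 _x_at sets are higher in all 13 MII arrays than in GV, whereas 1415998_at has 9 MII arrays above and 4 below the GV arrays.

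Vdac2, the form that binds BAK, was lower at MII in every group. Its probe set, 1415990_at, was 9.25 and 9.60 in GV arrays. In adult in vivo oocytes it was 6.30, 7.47 and 7.84, and in adult in vitro oocytes 7.27 and 5.96. In d26 oocytes it was 7.41 and 7.91 in vivo and 7.33, 6.67 and 7.01 in vitro, and in d20 in vitro oocytes 7.72, 7.38 and 6.91. All 13 MII arrays lay below both GV arrays after quantile normalization, after median scaling and as deposited, beside 15.8% of tested probe sets after quantile normalization.

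The difference of Vdac2 from GV was -2.23 (SE 0.50) in adult in vivo and -2.81 (SE 0.54) in adult in vitro oocytes, which is 4.68 and 7.02 times lower after quantile normalization, and -3.42 and -4.96 as deposited. It was -1.77 in d26 in vivo, -2.42 in d26 in vitro and -2.09 in d20 in vitro oocytes, against the same GV arrays (-2.76, -4.72 and -2.66 as deposited). By mean the order was GV, d26 in vivo (7.66 ± 0.36, SD, n = 2), d20 in vitro (7.34 ± 0.41, SD, n = 3), adult in vivo (7.20 ± 0.80, SD, n = 3), d26 in vitro (7.00 ± 0.33, SD, n = 3) and adult in vitro (6.62 ± 0.93, SD, n = 2), and only GV stood clear of its neighbour. The dim arrays ran from 5.96 to 7.01 and the other MII arrays from 6.91 to 7.91, and the 3 lowest values came from dim arrays. Over the 9 brighter MII arrays the mean difference from GV was -1.96.

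Vdac3, the form with a role in sperm motility, was lower at MII in every group. Its probe set, 1416175_a_at, whose suffix marks probes shared by several transcripts of 1 gene, was 12.03 and 11.82 in GV arrays. In adult in vivo oocytes it was 7.26, 7.26 and 7.59, and in adult in vitro oocytes 8.06 and 6.76. In d26 in vivo oocytes it was 7.34 and 7.31. In d26 in vitro oocytes it was 8.09, 6.98 and 8.29, and in d20 in vitro oocytes 7.99, 8.42 and 8.34. All 13 MII arrays lay below both GV arrays under each of the 3 scalings, beside 15.8% of tested probe sets after quantile normalization. That share was not counted under the other scalings, here or for Vdac2. The highest MII array, at 8.42 after quantile normalization, compares with 11.82 in the lower GV array.

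The difference of Vdac3 from GV was -4.55 (SE 0.43) in adult in vivo and -4.51 (SE 0.47) in adult in vitro oocytes, or 23.5 and 22.8 times lower after quantile normalization, and -5.23 and -6.13 as deposited. Against the same GV arrays it was -4.59 in d26 in vivo, -4.14 in d26 in vitro and -3.67 in d20 in vitro oocytes (-5.01, -5.83 and -3.62 as deposited). As deposited, the intensity was 6716 and 5190 in GV arrays and 32.0 to 529 at MII. The probe set was brighter than 98.9 and 99.1% of probe sets in GV and than 84.2 to 91.0% at MII.

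By mean the order of Vdac3 was GV, d20 in vitro (8.25 ± 0.23, SD, n = 3), d26 in vitro (7.79 ± 0.71, SD, n = 3), adult in vitro (7.41 ± 0.92, SD, n = 2), adult in vivo (7.37 ± 0.19, SD, n = 3) and d26 in vivo (7.33 ± 0.02, SD, n = 2). Neighbouring groups overlapped except GV and d20 in vitro. Dim arrays, at 6.76 to 8.29, and the other MII arrays, at 7.26 to 8.42, overlapped. The RefSeq gene table also lists a Vdac3 pseudogene, Vdac3-ps1, and whether it adds to the signal was not tested.

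The contrast between the channels could be read within single arrays, where a factor that scales a whole array cancels. As deposited, the log2 level of the leading Vdac1 set relative to Vdac3 was 4.32 to 8.02 higher in the 13 MII arrays than in the mean of the GV arrays (median 5.46). After quantile normalization the shift of Vdac1 relative to Vdac3 was 4.92 to 7.77 (median 6.10). Vdac2 relative to Vdac3 was 0.43 to 2.53 higher as deposited, so Vdac3 was reduced more than Vdac2 in each of the 13 arrays. These shifts rest on the contrast that chose the genes and show only that the probe sets changed unequally.

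**Figure D3:**
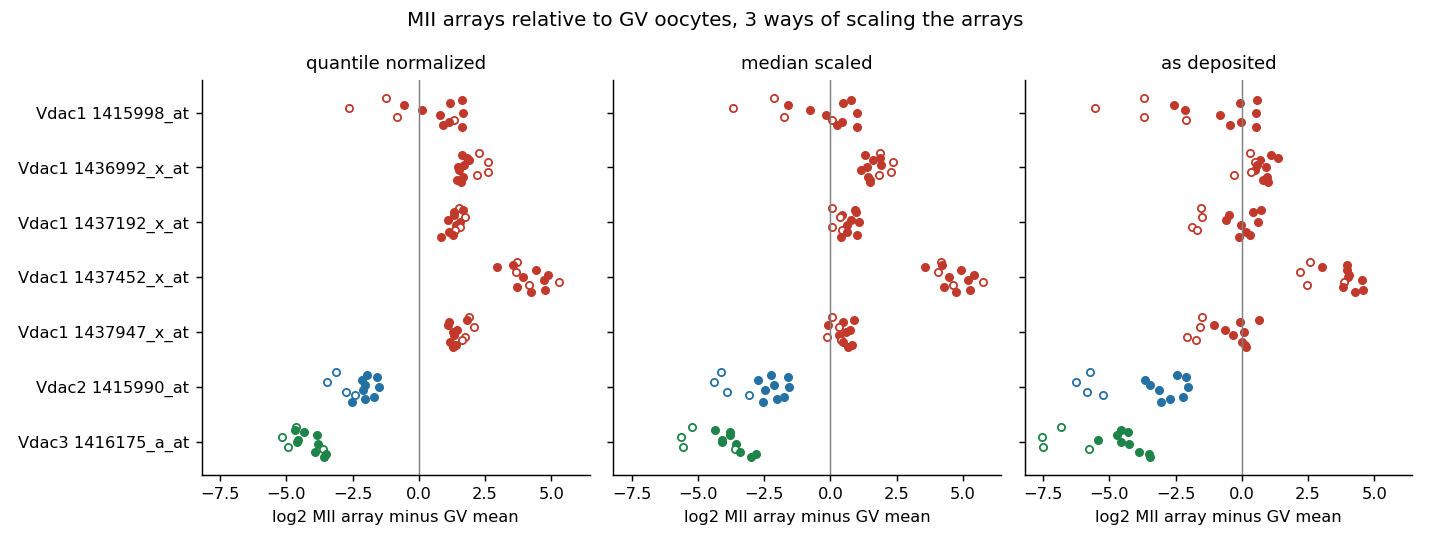
Log2 level of each of the 13 MII arrays minus the mean of the 2 GV arrays (horizontal axis) for the 7 probe sets (vertical axis) under quantile normalization, median scaling and the values as deposited; open circles are the 4 dim arrays. Vdac2 and Vdac3 lie below 0 in all 13 arrays in each panel, the leading Vdac1 set lies above both GV arrays in 13, 13 and 12 arrays, and 1437192_x_at and 1437947_x_at move to both sides of 0 as deposited.

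Differences among MII oocytes played no part in the choice of the genes and were tested with limma. The study compared maturation in vivo with maturation in vitro at both ages, and the ages with each other after maturation in vitro. None of the 36 tests of the 6 tested probe sets in 6 comparisons passed an adjusted p below 0.05, and 4 had an unadjusted p below 0.05. Few probe sets passed in any of these comparisons. The share called over all tested probe sets was 0.00444% for adult in vivo against in vitro, 0.04% for d26 in vivo against in vitro, 0% for the dependence of that difference on age, 0% for d20 against d26, 0.0222% for d20 against adult and 0.00444% for d26 against adult. In the same order, 8, 6.8, 3.73, 11.5, 17.6 and 7.34% of them had an unadjusted p below 0.05.

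Maturation in vivo and in vitro gave Vdac levels that were not told apart at these sizes of group. In adults the in vivo minus in vitro difference was -0.35 for the leading Vdac1 set (95% interval -1.01 to 0.31), 0.58 for Vdac2 (-0.47 to 1.64) and -0.040 for Vdac3 (-0.95 to 0.87). At d26 it was -0.51 for Vdac1 (-1.17 to 0.15), 0.65 for Vdac2 (-0.41 to 1.71) and -0.46 for Vdac3 (-1.37 to 0.45). The signs for Vdac1 and Vdac3 turned with the values as deposited, at both ages.

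The in vivo minus in vitro difference was also compared between ages. Adult minus d26 was 0.16 for Vdac1 (95% interval -0.77 to 1.09), -0.069 for Vdac2 (-1.57 to 1.43) and 0.42 for Vdac3 (-0.87 to 1.70), with an adjusted p of 1.00 by limma for each. In adults the in vivo group has 1 dim array of 3 and the in vitro group 1 of 2, and at d26 these are 0 of 2 and 2 of 3. Both d26 in vivo arrays also had the highest ratios of the 3' to the 5' Gapdh control signal in the series, 82.3 and 68.0, against 12.6, 16.5 and 26.8 in d26 in vitro arrays. The Actb control did not set them apart. Its ratios were 16.3 and 17.3, against 24.9, 4.56 and 7.94 in d26 in vitro arrays and 3.47 to 28.9 over the series. The part of these ratios in the comparison was not tested.

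Of the 5 comparisons between 2 MII groups, d20 against adult gave the largest estimate for each leading probe set after quantile normalization. For d20 against adult the difference was -0.70 for the leading Vdac1 set (95% interval -1.36 to -0.044), with an unadjusted p of 0.0381 and an adjusted p of 0.262 by limma. The d20 arrays, at 10.996 to 11.25, lay below both adult in vitro arrays, at 11.48 and 12.19, a separation downward that 19.6% of tested probe sets showed. As deposited the direction turned (0.33), and this was then the smallest of the 5 Vdac1 estimates. For Vdac3 the difference was 0.84 (-0.070 to 1.75, adjusted p = 0.317 by limma), with d20 arrays at 7.99 to 8.42 and adult arrays at 6.76 and 8.06, which overlap. For Vdac2 it was 0.72 (-0.34 to 1.78, adjusted p = 0.455 by limma). As deposited these differences were larger, 2.51 for Vdac3 (unadjusted p = 0.0229, adjusted p = 0.200 by limma) and 2.30 for Vdac2 (unadjusted p = 0.0491, adjusted p = 0.212 by limma). The median difference over all tested probe sets was then 1.32.

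The other age comparisons gave smaller differences after quantile normalization. For d20 against d26 the differences were -0.55 for Vdac1 (95% interval -1.14 to 0.039), 0.33 for Vdac2 (-0.61 to 1.28) and 0.46 for Vdac3 (-0.35 to 1.28). As deposited they were 0.73, 2.06 (unadjusted p = 0.0490, adjusted p = 0.140 by limma) and 2.21 (unadjusted p = 0.0245, adjusted p = 0.131 by limma), next to a median of 1.49 over all tested probe sets. For d26 against adult they were -0.15 for Vdac1 (-0.81 to 0.50), 0.39 for Vdac2 (-0.67 to 1.45) and 0.38 for Vdac3 (-0.53 to 1.29). The d20 group has no dim array, against 2 of 3 in d26 in vitro and 1 of 2 in adult in vitro. Without the dim arrays the difference of d20 from d26 was 0.047 for Vdac1, 0.0043 for Vdac2 and 0.15 for Vdac3. That from adult in vitro was -0.32 for Vdac1, 0.062 for Vdac2 and 0.19 for Vdac3. These values each set the d20 group against a single array.

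The Vdac1 set 1415998_at accounted for the other 3 unadjusted p-values below 0.05, all against adult in vitro oocytes, whose arrays were low (4.76 and 2.70). Its difference was 2.82 for d20 minus adult (SE 0.87, unadjusted p = 0.00568, adjusted p = 0.175 by limma). It was 2.13 for adult in vivo minus in vitro (SE 0.87, adjusted p = 0.573 by limma) and 2.04 for d26 minus adult in vitro (SE 0.87, adjusted p = 0.654 by limma). The lower of the adult in vitro values came from a dim array. Without the dim arrays the differences were 1.97, 2.17 and 1.54 in the same order, each against 1 adult in vitro array. As deposited they were 4.06, 2.98 and 1.85.

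**Figure D4:**
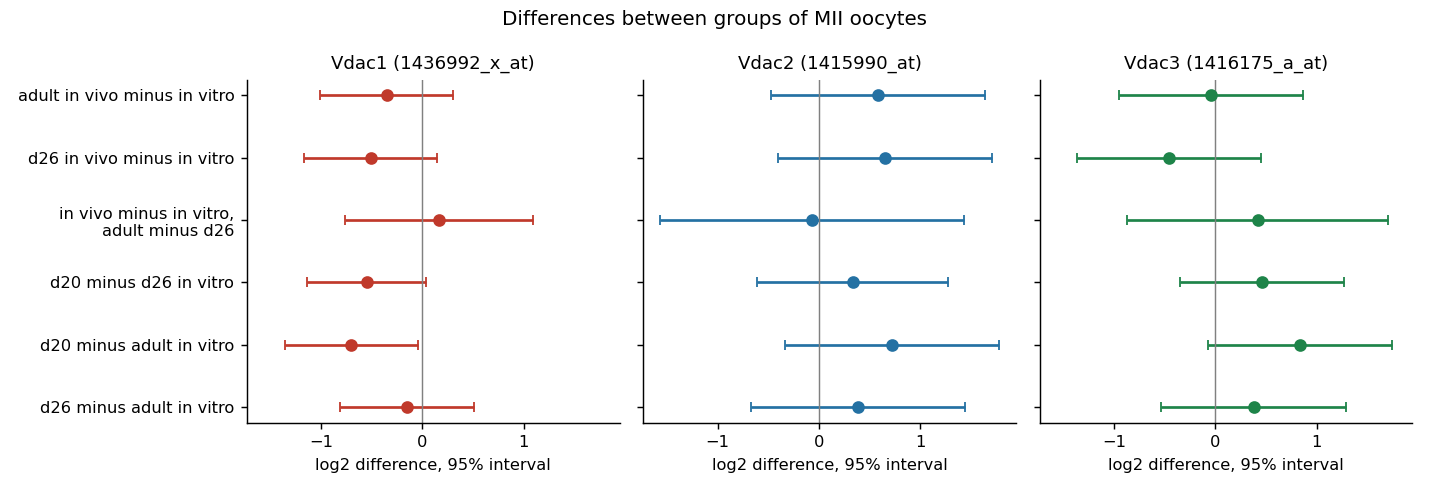
Log2 difference (horizontal axis) with its 95% interval for the leading probe set of Vdac1, Vdac2 and Vdac3 in 6 comparisons of MII oocytes (vertical axis), from the fit to all 15 arrays. All intervals include 0 except that of Vdac1 for d20 minus adult in vitro (-1.36 to -0.044), whose adjusted p was 0.262.

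Genes whose products work with the channels were taken from a list of 50, of which 43 had a probe set of their own and 40 were tested. Among those left out were Bax and Itpr1, without a probe set of their own, and Tomm40, which did not pass the filter. In adult in vivo oocytes 5 of the 40 rose and 5 fell against GV, next to 15.7% higher and 11.1% lower over all tested probe sets. In adult in vitro oocytes 6 rose and 5 fell, next to 16% and 11.7%. In this fit the counts are near the background. That background is a share of probe sets, whereas each partner gene is read by its brightest tested probe set. The balance depended on the scaling: as deposited 0 rose and 10 fell in vivo, next to 0.102% and 15.1% of all tested probe sets, and 0 rose and 15 fell in vitro, next to 0.0488% and 27.1%. With median scaling 1 rose and 12 fell in both, next to 5.3% and 16.9% in vivo and 5.8% and 19.5% in vitro. The median difference of the list was -0.086 in vivo and -0.17 in vitro, against 0.24 and 0.13 over all tested probe sets. Both comparisons share the GV arrays. Each role below holds only 4 to 9 tested genes, and its counts are to be read beside the same shares.

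Among the kinases that dock on the channels, 2 of 4 rose in each comparison, next to 15.7% and 16% of all tested probe sets. Hk2, a hexokinase that binds VDAC at the outer membrane, was 5.79 in GV (SD 0.055, n = 2) and 7.64 in adult in vivo pools (SD 0.084, n = 3), a difference of 1.85 (SE 0.32, adjusted p = 0.000623), and its difference in vitro was 2.04 (SE 0.35, adjusted p = 0.000615). Hk1, another hexokinase on the list, did not pass. Its differences were -0.22 in vivo (adjusted p = 0.934 by limma) and -0.66 in vitro (adjusted p = 0.781 by limma). Gsk3b, a kinase that phosphorylates VDAC, rose by 2.53 in vivo (SE 0.36, adjusted p = 0.000159) and by 3.16 in vitro (SE 0.40, adjusted p = 7.37e-05), while of its other 3 tested probe sets 1 passed in vivo only (1.80, adjusted p = 0.0404) and 2 in neither comparison. As deposited the Hk2 differences were -0.087 and -0.88 and did not pass, and those of Gsk3b were 0.62 and 0.32 and did not pass. With median scaling Hk2 did not pass either.

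Among proteins of inner membrane transport, 2 of 8 fell in each comparison, next to 11.1% and 11.7% of all tested probe sets, and none rose. Slc25a4, an ADP/ATP carrier that exchanges nucleotides across the inner membrane, fell by 2.61 in vivo (SE 0.65, adjusted p = 0.00759) and fell by 2.52 in vitro (SE 0.71, adjusted p = 0.0155), with the same direction in its other 2 tested probe sets. The other ADP/ATP carriers on the list did not pass in their leading probe sets. Slc25a5 gave -0.54 in vivo and -0.51 in vitro (adjusted p = 0.156 and 0.221 by limma). Slc25a31 gave 0.049 and 0.16 (adjusted p = 0.946 and 0.798 by limma). Micu2, a regulator of the mitochondrial calcium uniporter, fell by 2.66 in vivo (SE 0.43, adjusted p = 0.000417) and fell by 1.94 in vitro (SE 0.48, adjusted p = 0.00673). The Slc25a4 calls ended without GV replicate 1 (adjusted p = 0.0547 in vivo, 0.0743 in vitro), without GV replicate 2 (0.0551 and 0.0720) and, in vitro, without adult in vitro replicate 1 (0.111), as did the Micu2 call in vitro without adult in vitro replicate 1 (0.0588).

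At contacts with the endoplasmic reticulum 2 of 7 rose in each comparison, next to 15.7% and 16% of all tested probe sets. Itpr2, an inositol trisphosphate receptor that releases calcium, rose by 1.16 in vivo (SE 0.31, adjusted p = 0.0124) and by 1.23 in vitro (SE 0.34, adjusted p = 0.0145). Pdzd8, a tether between the endoplasmic reticulum and mitochondria, rose by 1.39 in vivo (SE 0.35, adjusted p = 0.00743) and by 1.64 in vitro (SE 0.38, adjusted p = 0.00445). Other tested probe sets disagreed: of 4 for Itpr2, 1 passed in vivo and 2 in vitro, and of 2 for Pdzd8, none passed in vivo and 1 in vitro. All 4 calls ended with median scaling (adjusted p from 0.310 to 0.817), and as deposited the differences were -0.083 and -0.91 for Itpr2 and -0.44 and -1.21 for Pdzd8. They also ended without GV replicate 2 (0.0566 to 0.104), and those of Itpr2 without GV replicate 1 (0.0760 in vivo, 0.0709 in vitro) or, in vitro, adult in vitro replicate 1 (0.100).

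The machinery that imports and inserts beta-barrel proteins such as VDAC had 9 tested members, of which 3 fell and 1 rose in each comparison. Over all tested probe sets 11.1% fell and 15.7% rose in vivo, and 11.7% and 16% in vitro. Mtx1, metaxin 1, a partner of the beta-barrel insertion complex, was 9.79 in GV (SD 0.34, n = 2), 6.25 after maturation in vivo (SD 0.23, n = 3) and 5.94 after maturation in vitro (SD 1.10, n = 2). Its differences were -3.54 (SE 0.45, adjusted p = 6.48e-05) and -3.85 (SE 0.49, adjusted p = 8.16e-05), while its other probe set did not pass (-1.22 and -1.33, adjusted p = 0.0661 and 0.0644). Tomm20, an import receptor, fell by 2.64 in vivo (SE 0.52, adjusted p = 0.00164) and fell by 2.26 in vitro (SE 0.57, adjusted p = 0.00804). Of its other 4 tested probe sets 2 fell in vivo and none in vitro. The Tomm20 call in vitro ended without GV replicate 1 (0.0725) or adult in vitro replicate 1 (0.0743).

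Mtx2 and Mtx3, the other metaxins, moved in opposite directions after quantile normalization, while as deposited Mtx3 turned to -0.017 in vivo and -0.28 in vitro. Mtx2 fell by 1.92 in vivo (SE 0.56, adjusted p = 0.0184) and fell by 2.88 in vitro (SE 0.61, adjusted p = 0.00261), and the call in vivo ended without GV replicate 1 (0.103), GV replicate 2 (0.102) or adult in vivo replicate 2 (0.0516). Mtx3 rose by 1.46 in vivo (SE 0.52, adjusted p = 0.0487) and by 2.16 in vitro (SE 0.57, adjusted p = 0.00981). The Mtx3 call in vivo ended under 10 of the 15 removals of 1 array (adjusted p up to 0.238), that in vitro without GV replicate 2 (0.0710) or adult in vitro replicate 2 (0.0787), and both ended with median scaling (0.288 and 0.121). The call in vivo also ended with no filter (0.0963), a pseudocount of 16 (0.0514), only the arrays compared (0.0935) and the title number as a block (0.0642). The other tested Mtx3 probe set did not pass (-1.23 and 0.51). Between MII groups Mtx2 was the only tested partner to pass, at d26, where it was higher in vivo than in vitro by 3.61 (SE 0.56, adjusted p = 0.0348), and this call ended under 10 of the 15 removals (adjusted p up to 0.266), with only the arrays compared (0.910), as deposited (0.182), with the title number as a block (0.177) and with no filter (0.0629). Both d26 in vivo arrays have the high Gapdh ratios given above, though not high Actb ratios, and the part of the Gapdh ratios in this call was not tested.

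Of 7 tested genes of the Bcl2 family, which do not include Bax, none passed in either comparison after quantile normalization in the fit to all arrays. Bcl2l1, which encodes the survival protein BCL-XL, had differences of -1.22 (SE 0.80, adjusted p = 0.313) and -2.30 (SE 0.88, adjusted p = 0.0657). The second passed as deposited (-4.66, adjusted p = 0.0229), with median scaling (-3.24, 0.0292), a pseudocount of 16 (0.0485), only the arrays compared (0.0245), array weights (0.0278) and 4 of the 15 removals of 1 array (0.0299 to 0.0496). Bak1, the VDAC2 partner, had differences of 1.67 (SE 0.95, adjusted p = 0.232) and 1.58 (SE 1.04, adjusted p = 0.303), from a GV mean of 2.23 that lies under the filter level of 3.07. Among 5 other outer membrane proteins 1 rose in vitro, the mitophagy receptor Fundc1 (2.62, SE 0.74, adjusted p = 0.0149), whose difference in vivo was 1.77 (SE 0.67, adjusted p = 0.0667, passing with array weights and 2 removals of 1 array), and its other probe set rose in both (1.75 and 2.91, adjusted p = 0.0112 and 0.000710). The Fundc1 call ended without GV replicate 1 (0.0585), GV replicate 2 (0.0900) or adult in vitro replicate 2 (0.148), and with median scaling (0.181), and as deposited the difference was -0.25.

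**Figure D5:**
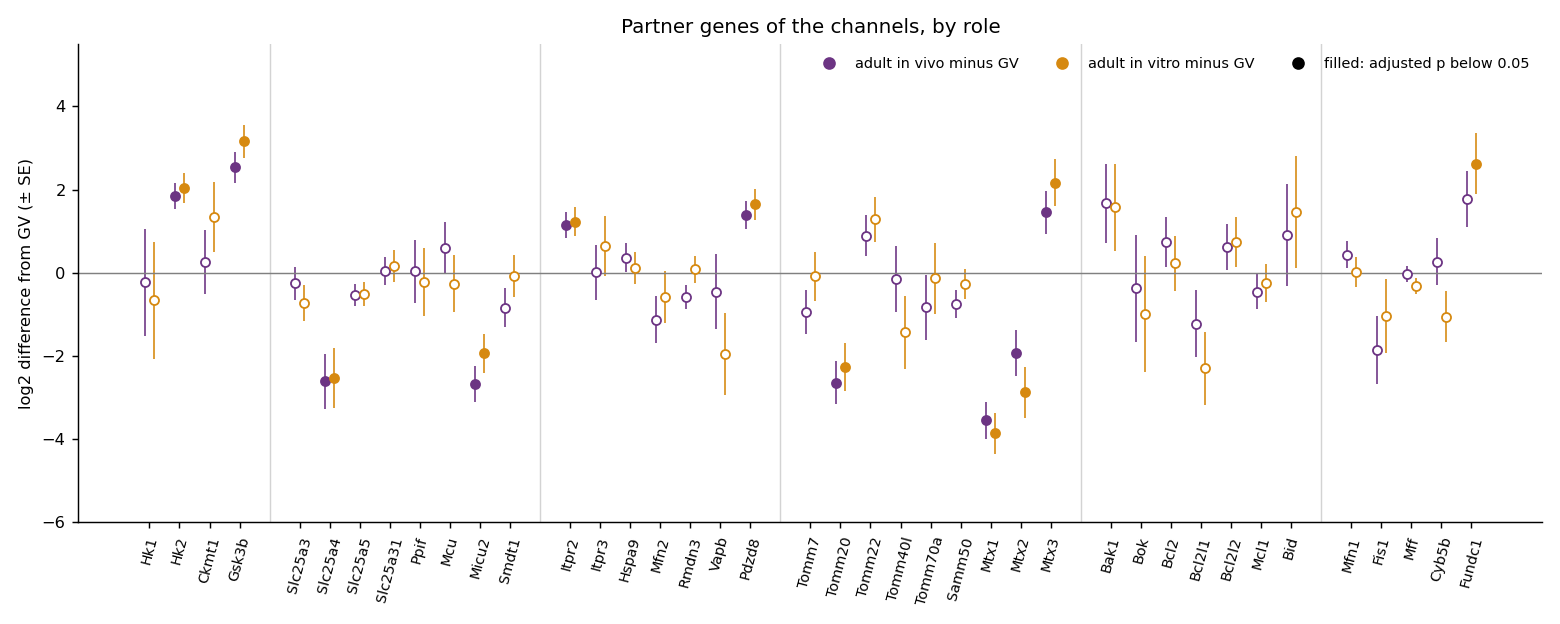
Log2 difference from GV ± SE (vertical axis) for the 40 tested partner genes, grouped by role between grey lines, in adult in vivo (purple) and adult in vitro (orange) oocytes; filled circles have an adjusted p below 0.05 by limma. In vivo 5 genes are filled above 0 and 5 below, and in vitro 6 and 5.

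The genes whose levels ran most like each channel over the 15 arrays were found by Pearson correlation among 12027 other tested genes. For the leading Vdac1 set they were Rictor, a component of the mTOR complex 2 (r = 0.98, and 0.93 over the 13 MII arrays alone), the phosphatase gene Ppm1d (0.98 and 0.92) and Tmem71 (0.98 and 0.93). For Vdac2 they were the ribosomal stalk gene Rplp0 (0.96 and 0.88), the aldehyde dehydrogenase gene Aldh7a1 (0.96 and 0.91) and the mitochondrial ribosomal gene Mrpl24 (0.96 and 0.86). For Vdac3 they were Prpsap1, which encodes a protein associated with phosphoribosyl pyrophosphate synthetase (0.99 and 0.87), the replication helicase gene Mcm5 (0.98 and 0.78) and the dynein cofactor gene Nudc (0.97 and 0.69). The arrays share the step between GV and MII and the differences in brightness, and these correlations describe likeness only.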

How the data were processed

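The deposited values are probe set intensities on a linear scale for 45101 probe sets on 15 Affymetrix arrays, which the authors computed by MAS5 according to the submitters' processing notes (no version or target is named). Poly(A) RNA was amplified in a two-cycle protocol per the labels, which favours sequence near the 3' end. No array duplicated another (at most 0.00222% identical values in 105 pairs).

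From these, log2 intensities without the 64 control probe sets were quantile normalized. Tested were the 22519 probe sets in the upper 50% by mean (at least 3.07). Group means were fitted to all arrays with limma 3.58.1 in R 4.3.3 (9 residual degrees of freedom, trended variances, Benjamini-Hochberg adjustment within each comparison, calls below 0.05). The fit was also run on simulated data with known changes. Their noise was drawn independently for each array, without differences in brightness, so that run says nothing about effects of brightness. Of probe sets, 34958 had 1 symbol, 932 several and 9211 none, and 34754 of the first matched the GRCm38.p6 gene table by gene identifier and took its current symbol. Each partner gene is represented by its brightest tested probe set. Genes eligible to be named were all Vdac probe sets and the 3 genes most correlated with each channel. Eligible partners were, per role of the list, the 4 genes with the smallest p against GV. Of the partners, those that passed are described, with Bcl2l1 and Bak1 for the Bcl2 family, where none did. Hk1, Slc25a5 and, from outside the eligible genes, Slc25a31 are given beside Hk2 and Slc25a4 as genes of the same kind. Some genes that were not tested are named as such. Alternatives were the values as deposited, median scaling, no filter, a pseudocount of 16, only the arrays compared, weights per array, a block on whether the title number exceeds 12, no dim arrays, and leaving out each array. The members, lists and alternatives were chosen with earlier results of these data known. The number of arrays limits the precision.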

Additional observations from a re-analysis of the deposited data

How the results depend on the processing

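No paired analysis was possible because the labels give no replicate numbers that groups share. Array scaling moved the most values. Over all tested probe sets the median difference from GV as deposited was -0.97 in vivo and -1.92 in vitro. As deposited, the differences from GV in vivo and in vitro were 0.92 and 0.58 for the leading Vdac1 set, -3.42 and -4.96 for Vdac2 and -5.23 and -6.13 for Vdac3. Those of 1437192_x_at turned to -0.12 and -1.01, those of 1437947_x_at to -0.30 and -1.31, and that of 1415998_at in vivo to -1.07 (-0.30 with median scaling). Median scaling gave -3.55 for Vdac2 in vitro. Without the 4 dim arrays the in vitro values were 1.77, -2.10 and -3.63 for Vdac1, Vdac2 and Vdac3. Without any 1 array they ran from 1.70 to 2.05 in vivo and 1.87 to 2.60 in vitro for Vdac1, from -2.53 to -1.76 and -3.45 to -2.14 for Vdac2, and from -4.75 to -4.45 and -5.14 to -3.81 for Vdac3, and that of 1415998_at in vivo from -0.023 to 1.43. The cause was not tested.

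None of the Vdac tests between MII groups was called under any setting run, but signs turned. As deposited, Vdac1 gave 0.34 for adult and 0.55 for d26 in vivo minus in vitro, -0.21 for their difference, 0.73 for d20 minus d26 and 0.33 for d20 minus adult, and Vdac3 gave 0.90 and 0.83 for adult and d26 in vivo minus in vitro. Median scaling gave 0.26 and 0.17 for Vdac3 in those comparisons and -0.19 for the age dependence of Vdac1. Array weights gave 0.076 for Vdac3 in adults and -0.072 and 0.47 for the age dependence of Vdac1 and Vdac2, and the title number block gave -0.034 for that of Vdac1. Without the dim arrays it was -0.25 for Vdac1 and 0.052 for Vdac2, and Vdac1 gave 0.080 for d26 in vivo minus in vitro and 0.047 for d20 minus d26. Leaving out 1 array, adult in vivo minus in vitro ran from -0.70 to 0.0029 for Vdac1, -0.075 to 1.24 for Vdac2 and -0.69 to 0.60 for Vdac3. The age dependence ran from -0.19 to 0.50, -0.73 to 0.59 and -0.23 to 1.06, and d26 minus adult from -0.51 to 0.20, -0.27 to 1.04 and -0.27 to 1.02.

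Partner counts also depended on scaling. As deposited 0 rose and 10 fell in vivo, next to 0.102% and 15.1% of all tested probe sets. In vitro 0 rose and 15 fell, next to 0.0488% and 27.1%. With median scaling 1 rose and 12 fell in both, next to 5.3% and 16.9% in vivo and 5.8% and 19.5% in vitro. Hk2, Pdzd8, Itpr2, Mtx3 and Fundc1 turned to -0.087, -0.44, -0.083, -0.017 and -0.17 in vivo and -0.88, -1.21, -0.91, -0.28 and -0.25 in vitro as deposited. In vivo, array weights gave 11 and 13, next to 27.3% and 18.4% of all tested probe sets, and without the dim arrays 9 rose and 11 fell, next to 23.3% and 15.1%. Without 1 array, 2 to 6 rose and 3 to 9 fell in vivo and 2 to 7 rose and 2 to 7 fell in vitro, the lowest rises without GV replicate 2. Over all tested probe sets 8.34 to 17.8% then rose and 6.42 to 12.5% fell in vivo. In vitro these shares were 9.93 to 17.7% and 6.97 to 13.5%.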
